A study of Sus scrofa with 12 samples.

Results

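Bone morphogenetic protein (BMP) signalling and the ID genes were described here as 10 genes: the ligands BMP4 and GDF6, the secreted modulator BMPER, the receptors ACVRL1 and BMPR2, the co-receptor ENG, the inhibitory SMADs SMAD6 and SMAD7, and the targets ID1 and ID3. They were taken by symbol, and each of the 10 symbols matched exactly 1 of the 21153 genes in the deposited table. The cells were primary arterial endothelial cells (ECs) of 8-month-old pigs from a slaughterhouse, grown in serum and heparin on gelatin and exposed for 48 h to laminar flow. Low aneurysmal wall shear stress (WSS) was 2 dyne/cm2, physiological WSS 30 dyne/cm2 and supra-high aneurysmal WSS 80 dyne/cm2. Each of 3 donors gave 1 culture for low WSS, 1 for supra-high WSS and 2 for physiological WSS, hence 12 RNA sequencing libraries, with no genetic change or drug in any group. The labels number the cultures at 30 dyne/cm2 as a first and a second set, here set 1 and set 2. Set 1 was compared with 2 dyne/cm2 and set 2 with 80 dyne/cm2, so no control library was shared. The labels do not state this assignment outright. It fits the order in which each donor's cultures are numbered. The submitters' design text, however, names each control after the condition it belongs to, so the set whose label ends in 2, here set 2, could by its name also be the control of 2 dyne/cm2. The calls of GDF6, GDF7, NOG and MGP at 80 dyne/cm2 were not made against set 1, and the values against the other set are given where each is described. The submitters' texts describe the cells as aortic and give 80 dyne/cm2 and its controls another flow slide and seeding density than 2 dyne/cm2 and its controls, whereas the methods name coronary arteries and a single slide type. Total reads on genes lay between 29606854 and 41058902 per library.

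BMPs are secreted dimers of the TGF-beta superfamily. They assemble type I receptors such as ACVRL1 (ALK1) with type II receptors such as BMPR2, ENG presents ligand in ECs, and the receptors phosphorylate SMAD1, SMAD5 and SMAD9, which enter the nucleus with SMAD4. Among the genes these SMADs switch on are the ID genes, whose proteins block basic helix-loop-helix factors, and SMAD6 and SMAD7, which shut the pathway off again. Loss-of-function mutations of ACVRL1 or ENG cause hereditary hemorrhagic telangiectasia, and those of BMPR2 cause pulmonary arterial hypertension.

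The endothelial label was checked first. PECAM1 and CDH5, which encode junction proteins of ECs, ranged from 1518 to 4030 CPM and from 1358 to 2138 CPM over the 12 libraries, where CPM are a gene's reads per 1000000 reads on genes of its library. The 6 of 8 listed endothelial markers found in the table summed to 3996 to 5194 CPM at 2 dyne/cm2, 6314 to 7103 in set 1, 5909 to 6758 in set 2 and 7292 to 7991 at 80 dyne/cm2. All 6 were lower at 2 dyne/cm2 than in set 1, and 1 was down-regulated, where 4.54% of all tested genes were. This was TEK, at 42.2 to 85.8 CPM against 453 to 521 CPM. Its log2 fold change was -2.95 (SE 0.24, adjusted p = 0.0048, edgeR). PECAM1 had -0.71 (adjusted p = 0.0346) and CDH5 -0.11 (adjusted p = 0.521). At 80 dyne/cm2 5 of the 6 were higher than in set 2, and none was up- or down-regulated, where 2.2% of all genes were. On the adjusted p alone 1 of the 6 changed there, KDR, where 8.4% of all tested genes did. KDR had a log2 fold change of 0.49 (adjusted p = 0.0231, or 0.845 without the donor term, edgeR). At 2 dyne/cm2 KDR had -1.27 (SE 0.37, adjusted p = 0.0609). All 7 leukocyte markers together summed to 8.25 to 11.8 CPM at 2 dyne/cm2, 15.2 to 22.5 in set 1, 13.1 to 24.9 in set 2 and 14.8 to 27.6 at 80 dyne/cm2. PTPRC and CD3E, the pan-leukocyte and T cell markers, had 0 counts in all libraries but 1, from donor 2 at 80 dyne/cm2, which had 2 and 1. CD68, a macrophage marker, had 4.80 to 7.56 CPM at 2 dyne/cm2 and 12.9 to 18.4 CPM in set 1, a log2 fold change of -1.17 (SE 0.15, adjusted p = 0.0096, edgeR), and 0.15 at 80 dyne/cm2 (adjusted p = 0.691). CD14 had 1.08 to 4.91 CPM over all libraries, and the part of these genes in the results was not tested. Of 12 smooth muscle and fibroblast markers, the 5 contractile genes (ACTA2, MYH11, CNN1, TAGLN and DES) stayed at or under 0.769 CPM in every library. The whole list summed to 383 to 1302 CPM at 2 dyne/cm2 against 167 to 301 CPM in set 1, and to 46.2 to 173 CPM at 80 dyne/cm2 against 132 to 714 CPM in set 2. Between 75.0% and 98.9% of that sum came from the fibrillar collagen genes COL1A1, COL1A2 and COL3A1. Of the other genes of the list, PDGFRB and PDGFRA, receptors of mural cells and fibroblasts, were up-regulated at 2 dyne/cm2. PDGFRB had 1.08 to 6.67 CPM there and 0.212 to 1.22 CPM in set 1 (5.30-fold, adjusted p = 0.0076, or 0.116 without the donor term). PDGFRA had 2.86 to 4.85 CPM and 1.09 to 2.09 CPM (2.13-fold, adjusted p = 0.03, or 0.0949 without the donor term). DCN, a fibroblast proteoglycan gene left untested for its low counts, had 0.598 to 4.52 CPM there and 0.236 to 0.438 CPM in set 1. Among the 6 tested genes of the list, only LUM had a log2 fold change below 0 at 2 dyne/cm2. It had means of 6.27 CPM there and 7.42 CPM in set 1, and was higher in 1 of 3 donors. Its log2 fold change was -0.11 (SE 0.25, adjusted p = 0.763), and -0.57 (adjusted p = 0.252) at 80 dyne/cm2. COL3A1 had a log2 fold change of 1.97 (adjusted p = 0.0090) at 2 dyne/cm2 and -1.90 (adjusted p = 0.0203, or 0.504 without the donor term) at 80 dyne/cm2. In all, 3 of 6 tested genes of the list were up-regulated at 2 dyne/cm2, where 5.06% of all tested genes were. At 80 dyne/cm2 1 of 5 was down-regulated, where 1.05% of all tested genes were. Without the donor term 1 and 0 genes of the list were called, against 5.66% and 0% of all genes. The sum of the list moved in the same direction as BMP4 and GDF6 in both comparisons, and its part in their changes was not tested.

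At low WSS the ligands BMP4 and GDF6 were far higher than at 30 dyne/cm2, ID3 was higher, and BMPER, SMAD7 and ACVRL1 were lower. Of the 9 genes with enough reads, 2 were up-regulated (BMP4 and GDF6) and none down-regulated by the thresholds of the study, which ask for a 2-fold change together with an adjusted p under 0.05. Over all 11226 genes tested, 9.6% passed these thresholds. On the adjusted p alone 6 of the 9 genes changed, 3 up and 3 down, against 25.8% of all genes (13.4% up and 12.4% down). At supra-high WSS, 1 of the 9 genes was down-regulated (GDF6), against 2.2% of 11187 genes tested. On the adjusted p alone 2 changed (BMP4 and GDF6, lower), against 8.4% of all genes in either direction and 4.04% lower. The median log2 fold change of the 9 genes was 0.15 for low WSS and -0.17 for supra-high WSS, where the medians over all tested genes were 0.0025 and -0.0058. All p-values are from edgeR's quasi-likelihood test with a donor term, adjusted by Benjamini-Hochberg over all genes tested, and values of the test without the donor term are added where they change a call. Without that term 2 of the 9 genes passed both thresholds at low WSS, against 5.66% of all genes. At supra-high WSS none passed in edgeR without that term, against 0% of all genes, while 929 of all genes, GDF6 and SMAD7 among them, had an unadjusted p under 0.05. DESeq2 was run with the donor term and called 236 genes. The CPM of the groups did not overlap for 4 of the 9 genes at 2 dyne/cm2 (BMP4, GDF6, SMAD7 and ID3) and for 2 at 80 dyne/cm2 (GDF6 and SMAD7), against 36.5% and 14.2% of all tested genes. In RNA of whole cultures, more cells that express a gene and more RNA per cell cannot be told apart.

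**Figure D1:**
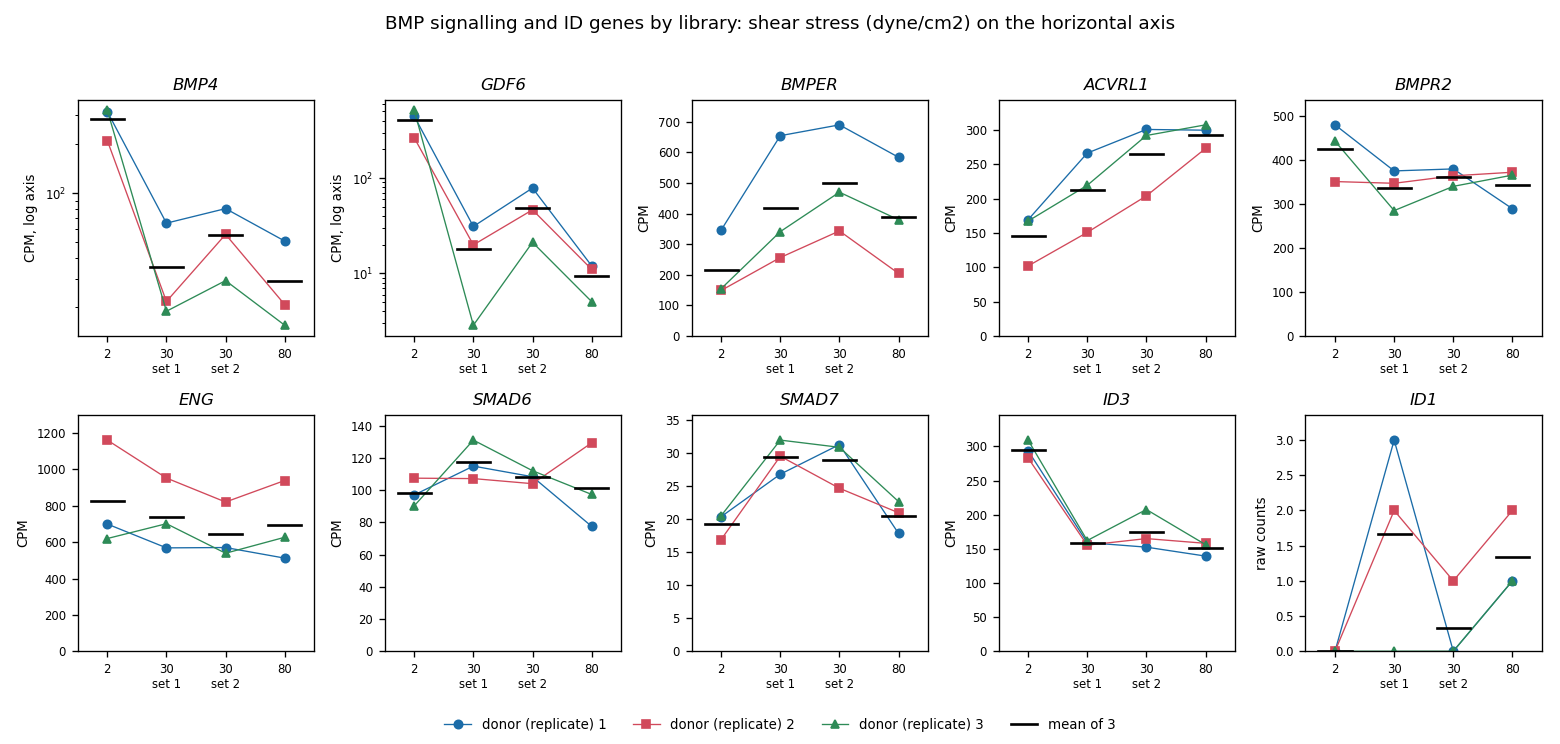
CPM of 9 genes and raw counts of ID1 (vertical axes, logarithmic for BMP4 and GDF6) in the 12 libraries, by shear stress in dyne/cm2 (horizontal axis). Lines join the libraries of a donor and black bars are the arithmetic means of 3 donors. BMP4 and GDF6 stand at 209 CPM or more in every culture at 2 dyne/cm2 and at 80.3 CPM or less in every other culture, while ID1 has 0 to 3 counts throughout.

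BMP4, a ligand that vascular ECs secrete under altered flow, showed its highest levels at low WSS in all donors (ENSSSCG00000005045, chromosome 1, 183415989 to 183422888). At 2 dyne/cm2 donors 1, 2 and 3 had 314, 209 and 320 CPM, and in set 1 they had 65.4, 21.8 and 19.0 CPM. Every culture at low WSS was above every culture at 30 dyne/cm2, and in set 1 donor 1 stood well above donors 2 and 3. The log2 fold change was 3.21 (standard error, SE, 0.38; adjusted p = 0.0088, edgeR), or 9.25-fold. Within donors the log2 differences were 2.25, 3.24 and 4.04. In the cultures at 80 dyne/cm2 the donors had 50.9, 20.8 and 15.6 CPM, and in set 2 they had 80.3, 55.9 and 29.2 CPM. Each donor was lower at supra-high WSS than in its own control, although the ranges overlap. This gave a log2 fold change of -0.96 (SE 0.13, adjusted p = 0.0072), a change just short of 2-fold that had an adjusted p of 0.69 without the donor term. It also had an adjusted p of 0.0571 without donor 3 and 0.133 with the spread estimated from all 12 libraries. Without donor 1 it passed 2-fold, with a log2 fold change of -1.09.

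GDF6, a BMP-family growth factor known from joint and skeletal development, had the steepest response of the 10 genes (ENSSSCG00000034943, chromosome 4, 40473015 to 40491142). The 3 donors had 446, 265 and 515 CPM at 2 dyne/cm2 and 31.1, 19.9 and 2.86 CPM in set 1. The donor with the lowest level at 30 dyne/cm2, donor 3, had the highest at 2 dyne/cm2. The log2 fold change was 4.80 (SE 0.89, adjusted p = 0.0213), or 27.9-fold, and the donors' own differences were 3.82, 3.70 and 7.26. Without donor 3 the log2 fold change was 3.78, and without donor 2 it was 5.54 (adjusted p = 0.0474). With supra-high WSS the donors had 12.01, 11.03 and 5.06 CPM against 78.6, 46.4 and 21.2 CPM in set 2. No culture at supra-high WSS reached the lowest of its controls. This gave a log2 fold change of -2.27 (SE 0.17, adjusted p = 0.0023), with differences of -2.66, -2.03 and -1.96 within donors. Without the donor term its adjusted p was 0.418, and with the spread of all 12 libraries it was 0.0742.

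Both ligands had higher values in set 2 than in set 1 in 3 of 3 donors, without passing the test. Between set 2 and set 1, both at 30 dyne/cm2, GDF6 had a log2 difference of 1.69 (SE 0.29, adjusted p = 0.103), with differences of 1.32, 1.20 and 2.69 in the 3 donors. BMP4 had a difference of 0.73 (SE 0.20, adjusted p = 0.161). None of the 9 genes passed the thresholds between the sets, where 0.00896% of 11163 genes did, but GDF6 passed them with DESeq2 (adjusted p = 0.0128), without the filter on low counts (0.0321), without donor 2 (0.0352) and without donor 3 (0.0453). The responses at 2 dyne/cm2 held against either set: with set 2 as control the log2 fold changes were 2.46 for BMP4 (adjusted p = 0.0158) and 3.20 for GDF6 (adjusted p = 0.0179). Those at 80 dyne/cm2 did not. Against set 1 they were -0.23 for BMP4 (adjusted p = 0.476) and -0.55 for GDF6 (adjusted p = 0.58). Ordered by mean level, both ligands ran from 2 dyne/cm2 over set 2 and set 1 to 80 dyne/cm2. Of the neighbours in this order, 2 dyne/cm2 and set 2 differed beyond the spread of the donors, while neither set 2 and set 1 nor set 1 and 80 dyne/cm2 passed the test. The flow slide named by the submitters and the set cannot be told apart.

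BMPER, a secreted BMP-binding protein of ECs, had the lowest levels at 2 dyne/cm2 (ENSSSCG00000016665, chromosome 18, 39417830 to 39664010). The donors had 346, 149 and 154 CPM there and 654, 256 and 341 CPM in set 1. The ranges overlap, with donor 1 the highest in every condition, and each donor was lower at low WSS. The log2 fold change was -0.93 (SE 0.10, adjusted p = 0.0069), with differences of -0.92, -0.78 and -1.14 within donors, and the adjusted p was 0.235 without the donor term. Against set 2 the change passed 2-fold, with a log2 fold change of -1.24 (adjusted p = 0.0060). Under supra-high WSS BMPER had 584, 204 and 380 CPM against 690, 343 and 470 CPM in set 2, lower in 3 of 3 donors, and its log2 fold change of -0.40 (SE 0.11) did not pass the test (adjusted p = 0.0689). On the adjusted p alone it did pass in DESeq2 (0.013) and without the filter on low counts (0.0437). It also passed without donor 1 (0.0056), a fit of 2 donors.

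The receptors had smaller fold changes than BMP4 and GDF6 in both comparisons. ACVRL1, the type I receptor that ECs use for BMP9 and BMP10, had 169, 102 and 167 CPM at 2 dyne/cm2 and 266, 151 and 219 CPM in set 1 (ENSSSCG00000000232, chromosome 5, 17267483 to 17284155). It was lower at low WSS in each donor, with a log2 fold change of -0.52 (SE 0.10, adjusted p = 0.0229). This change was not called without the donor term (adjusted p = 0.291), without donor 1 (0.117) or without donor 2 (0.0768), and it was -0.85 against set 2 (adjusted p = 0.0070). At 80 dyne/cm2 ACVRL1 had 299, 273 and 307 CPM against 301, 204 and 292 CPM in set 2. Here 2 of 3 donors were higher, most of all donor 2, and the log2 fold change of 0.20 (SE 0.12) did not pass (adjusted p = 0.361).

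BMPR2, the type II receptor of BMPs (ENSSSCG00000016113, chromosome 15, 105971577 to 106132496), had 481, 352 and 443 CPM at 2 dyne/cm2 and 376, 348 and 285 CPM in set 1. All donors were higher at low WSS, donor 2 barely so, and the log2 fold change of 0.35 (SE 0.15) did not pass (adjusted p = 0.15). With supra-high WSS it had 290, 373 and 366 CPM against 380, 365 and 341 CPM, with a log2 fold change of -0.05 (SE 0.14, adjusted p = 0.844). Donor 1 was lower and the others were higher.

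ENG, endoglin, was the member with the largest share of its own spread between donors and the smallest between conditions (ENSSSCG00000005625, chromosome 1, 268309379 to 268343861). It had 700, 1162 and 620 CPM at 2 dyne/cm2, 569, 953 and 702 CPM in set 1, 570, 821 and 539 CPM in set 2, and 512, 939 and 627 CPM at 80 dyne/cm2. Donor 2 had the highest level in all 4 conditions. The log2 fold changes were 0.15 at 2 dyne/cm2 (SE 0.13, adjusted p = 0.407) and 0.12 at 80 dyne/cm2 (SE 0.13, adjusted p = 0.607). The first was 0.36 against set 2, with an adjusted p of 0.0472. Of the spread of log2 CPM over the 12 libraries, 80.1% lay between donors for ENG and 12.1% between conditions. For BMPER 53.7% lay between donors and 42.4% between conditions. For ID3, GDF6, BMP4 and SMAD7 the conditions held 92.9%, 85.7%, 82.3% and 81.1%.

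**Figure D2:**
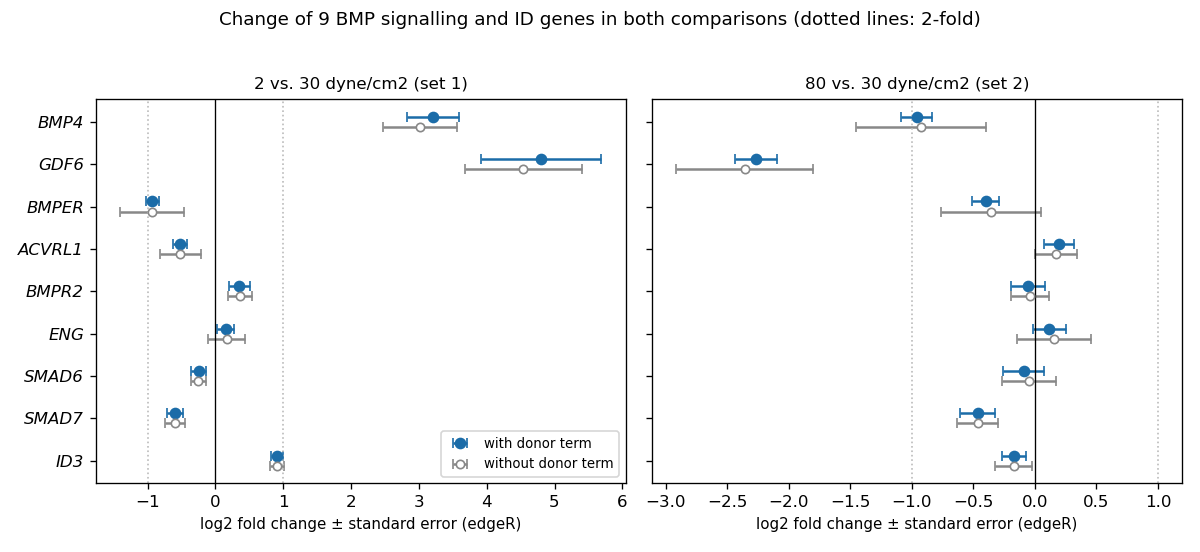
Log2 fold change (horizontal axis, bars are standard errors from edgeR) of 9 genes at 2 vs. 30 dyne/cm2 and at 80 vs. 30 dyne/cm2, with and without the donor term. BMP4 and GDF6 lie at 3.21 and 4.80 on the left and at -0.96 and -2.27 on the right, and the other 7 genes lie between -0.93 and 0.91.

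Of the inhibitory SMADs, SMAD7 passed the test at low WSS and SMAD6 did not, and whether they differed from each other was not tested. SMAD7, which blocks receptor SMADs of both the BMP and the TGF-beta branch, had 20.3, 16.9 and 20.5 CPM at 2 dyne/cm2 and 26.8, 29.5 and 31.9 CPM in set 1 (ENSSSCG00000004507, chromosome 1, 98512800 to 98543924). The groups do not overlap, and the log2 fold change was -0.60 (SE 0.12, adjusted p = 0.0241). It was not called without the donor term (adjusted p = 0.0522), without donor 2 (0.0648) or without donor 3 (0.0714). Under supra-high WSS SMAD7 had 17.8, 20.9 and 22.6 CPM against 31.2, 24.6 and 30.8 CPM in set 2. It was again below all its controls, with a log2 fold change of -0.47 (SE 0.15) that did not pass (adjusted p = 0.0957, or 0.0493 without the filter on low counts). SMAD7 was thus lower than its own 30 dyne/cm2 control in 3 of 3 donors at either aneurysmal WSS.

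SMAD6, the inhibitor that prefers the BMP branch and is abundant in ECs, had 97.03, 107 and 90.3 CPM at 2 dyne/cm2 and 115, 107 and 131 CPM in set 1 (ENSSSCG00000004948, chromosome 1, 164652602 to 164735084). Donors 1 and 3 were lower and donor 2 was level, and the log2 fold change was -0.24 (SE 0.11, adjusted p = 0.159). In the cultures at 80 dyne/cm2 it had 77.5, 129 and 97.4 CPM against 108, 104 and 112 CPM, with a log2 fold change of -0.09 (SE 0.17, adjusted p = 0.769), which was 0.14 without donor 1. The donors went in different directions.

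ID3 encodes one of the ID proteins (ENSSSCG00000039514, chromosome 6, 81422541 to 81424169). It had 294, 283 and 309 CPM at 2 dyne/cm2 and 159, 155 and 162 CPM in set 1, so the groups were narrow and far apart. This gave a log2 fold change of 0.91 (SE 0.08, adjusted p = 0.0061), a 1.88-fold rise, with differences of 0.88, 0.86 and 0.93 in the donors. It passed the test in every alternative fit, with adjusted p up to 0.0207, and always below 2-fold. At 80 dyne/cm2 ID3 had 139, 158 and 156 CPM against 152, 165 and 208 CPM in set 2, lower in each donor by a small amount. The log2 fold change was -0.17 (SE 0.10, adjusted p = 0.324).

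ID1, a direct target of BMP signalling, could not be assessed (ENSSSCG00000037016, chromosome 17, 35316518 to 35317742). The 3 libraries at 2 dyne/cm2 had 0 counts each, set 1 had 3, 2 and 0, set 2 had 0, 1 and 0, and 80 dyne/cm2 had 1, 2 and 1. All groups are at or under 3 counts per library, the limit that a count of 0 allows, which is 0.0731 to 0.101 CPM. No fold change is therefore given. Reads with more than 1 mapping position had been discarded before counting, and whether this touches ID1 was not tested. ID2 had 15.9 to 21.9 CPM at 2 dyne/cm2 and 9.62 to 15.0 CPM in set 1. It had 12.5 to 24.9 CPM in set 2, which overlaps the range at 2 dyne/cm2, and 9.99 to 17.9 CPM at 80 dyne/cm2. ID4 was at or under 2.61 CPM in all libraries but 1.

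Whether the responses to low and supra-high WSS differ was tested directly over all 12 libraries. It passed for 5 of the 9 genes, against 37.1% of 11568 genes tested, and for 3 without the donor term, against 15.1%. The response at 80 dyne/cm2 minus that at 2 dyne/cm2 was -7.23 for GDF6 (SE 0.90, adjusted p = 4.2e-04), -4.27 for BMP4 (SE 0.50, adjusted p = 3.2e-04) and -1.08 for ID3 (SE 0.14, adjusted p = 5.0e-04), all on the log2 scale. It was 0.72 for ACVRL1 (SE 0.21, adjusted p = 0.0248) and 0.52 for BMPER (SE 0.18, adjusted p = 0.0415). The calls of ACVRL1 and BMPER were not made without the donor term (adjusted p = 0.253 and 0.623) or without any 1 of the donors. With the sets exchanged, an alternative chosen after seeing the data, the differences were -4.21 for GDF6 (adjusted p = 0.0074), -2.80 for BMP4 (adjusted p = 0.0040), -0.87 for ID3 (adjusted p = 0.0025), 1.35 for ACVRL1 (adjusted p = 0.0024) and 1.124 for BMPER (adjusted p = 0.0023). These 5 were again the members called. For ENG, BMPR2, SMAD6 and SMAD7 the differences were -0.04, -0.40, 0.17 and 0.12, with SEs of 0.17 to 0.25 and adjusted p of 0.228 to 0.871.

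The other genes of the pathway were taken from lists by role. With the 10 genes above they held 66 symbols, of which 63 were in the table and 40 had enough reads in each comparison. At 2 dyne/cm2, 5 of the 40 were up-regulated and 4 down-regulated, where 5.06% and 4.54% of all tested genes were. Under supra-high WSS 1 was up-regulated and 3 down-regulated, where 1.14% and 1.05% of all genes were. The median log2 fold change of the 40 genes was 0.09 and -0.09. Without the donor term 8 were called at 2 dyne/cm2 and none at 80 dyne/cm2, where that test called 0 of 11187 genes in all.

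**Figure D3:**
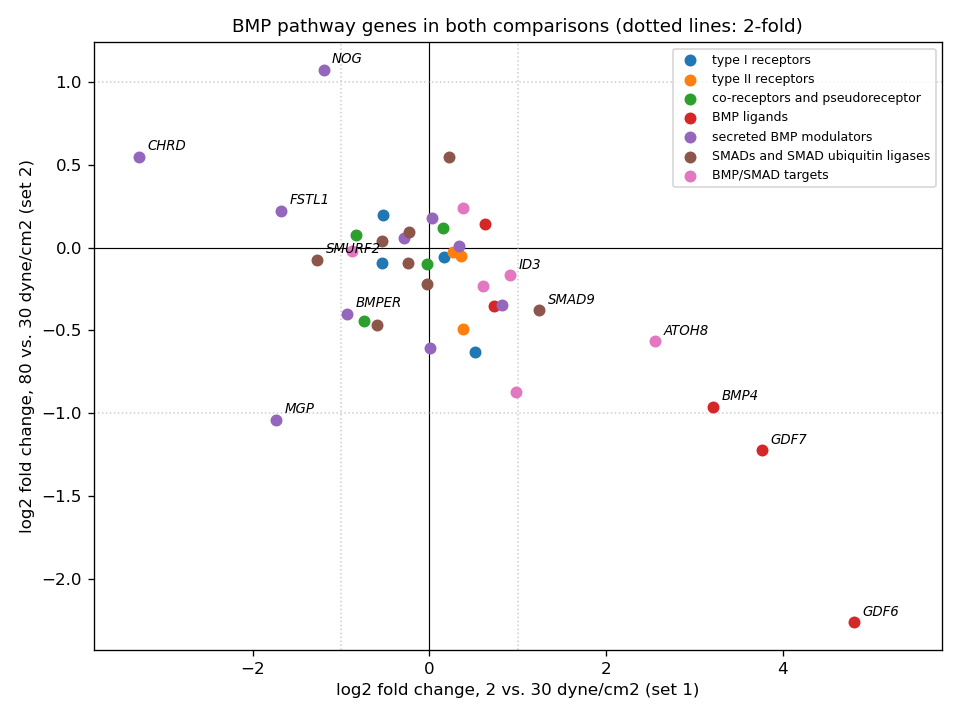
Log2 fold change of 40 pathway genes at 2 vs. 30 dyne/cm2 (horizontal axis) and at 80 vs. 30 dyne/cm2 (vertical axis), from edgeR with the donor term and coloured by role. The ligands BMP4, GDF7 and GDF6 lie at the lower right, with 3.21, 3.76 and 4.80 on the horizontal axis and -0.96, -1.23 and -2.27 on the vertical axis, while the antagonist NOG lies at the upper left, at -1.20 and 1.07.

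Among the ligands, 5 of the 13 in the table had enough reads, and at low WSS these 5 had a median log2 fold change of 3.21. GDF7, a relative of GDF6, had 94.4, 66.0 and 112 CPM at 2 dyne/cm2 and 9.43, 6.79 and 4.27 CPM in set 1. Its log2 fold change was 3.76 (SE 0.35, adjusted p = 0.0061), which makes 3 of 5 ligands up-regulated, where 5.06% of all tested genes were. In the cultures at 80 dyne/cm2 it had 7.31, 7.60 and 5.64 CPM against 18.7, 19.0 and 11.999 CPM in set 2, with a log2 fold change of -1.23 (SE 0.12, adjusted p = 0.0039). The groups do not overlap in either comparison. As for GDF6, the second call was not made without the donor term (adjusted p = 0.401) or with the spread of all 12 libraries (0.0578). Against set 1 it turned to 0.06. Between the sets GDF7 had a log2 difference of 1.29 (adjusted p = 0.0563). BMP6, named after its values were seen, had 209 to 238 CPM in set 1 and 263 to 507 CPM at 2 dyne/cm2, with a log2 fold change of 0.73 (SE 0.17, adjusted p = 0.0383, or 0.103 without the donor term). BMP2, also named after its values were seen, was higher at 2 dyne/cm2 in 2 of 3 donors. Its log2 fold change of 0.63 (SE 0.37) did not pass (adjusted p = 0.249). BMP9 and BMP10, the circulating ligands of ACVRL1, are encoded by GDF2 and BMP10, and both had 0 counts in the libraries of both comparisons.

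Of 10 secreted modulators with enough reads, none was up-regulated and 3 were down-regulated at low WSS (2 without the donor term), where 4.54% of all tested genes were, and the median log2 fold change was -0.61. On the adjusted p alone 1 rose and 4 fell, where 13.4% and 12.4% of all tested genes did. CRIM1, which rose and was named after its values were seen, had means of 1382 CPM at 2 dyne/cm2 and 796 CPM in set 1. Its log2 fold change was 0.82 (SE 0.18, adjusted p = 0.0317), and -0.34 (adjusted p = 0.101) at 80 dyne/cm2. CHRD, chordin, which binds BMPs and keeps them from their receptors, had 2.94, 6.05 and 10.6 CPM at 2 dyne/cm2 and 34.5, 44.7 and 119 CPM in set 1. Its log2 fold change was -3.29 (SE 0.16, adjusted p = 0.0029). With supra-high WSS it was 0.55 (SE 0.26, adjusted p = 0.235), with differences of 0.24, 1.38 and -0.05 within donors. It was 0.08 without donor 2 (adjusted p = 0.732) and 0.74 without donor 1. The adjusted p of 1.1e-06 without donor 1 came from 2 donors that went in different directions. NOG, noggin, another BMP antagonist, had 6.25, 7.60 and 6.14 CPM at 2 dyne/cm2 and 24.5, 10.5 and 13.9 CPM in set 1, a log2 fold change of -1.20 (SE 0.30, adjusted p = 0.0422). It was not called without the donor term (adjusted p = 0.0558), without donor 1 (-0.80, 0.0888), without donor 3 (0.112) or, being under 2-fold, against set 2 (-0.82). At 80 dyne/cm2 NOG had 25.7, 22.8 and 25.5 CPM against 12.8, 9.31 and 14.2 CPM in set 2, and it was the pathway gene up-regulated there, with a log2 fold change of 1.07 (SE 0.13, adjusted p = 0.0057). This call was lost without the donor term (adjusted p = 0.396), against set 1 (0.69, 0.289) and, being under 2-fold, without donor 2 (0.91).

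FSTL1, a secreted follistatin-like glycoprotein, had 705, 777 and 1118 CPM at 2 dyne/cm2 and 3167, 2227 and 2958 CPM in set 1. Its log2 fold change was -1.68 (SE 0.20, adjusted p = 0.0088). At 80 dyne/cm2 it was 0.22 (SE 0.19, adjusted p = 0.488), or 0.47 without donor 1 (adjusted p = 0.0137 from 2 donors). MGP, the matrix Gla protein, which binds BMPs and restrains calcification, was lower in every donor in both comparisons. It had 101, 201 and 554 CPM at 2 dyne/cm2 against 991, 388 and 1192 CPM in set 1, and its log2 fold change of -1.73 (SE 0.52) did not pass (adjusted p = 0.0684). It did pass, still beyond 2-fold, with DESeq2 (adjusted p = 0.0444), with the spread of all 12 libraries (0.0069), against set 2 (-1.13, 0.0347) and without donor 1 (-1.0005, 0.0191). Without donor 2 it was -2.17 (0.0884). In the cultures at 80 dyne/cm2 it had 149, 137 and 657 CPM against 341, 284 and 1293 CPM in set 2 and was down-regulated, with a log2 fold change of -1.04 (SE 0.11, adjusted p = 0.0044). That call was lost without the donor term (adjusted p = 0.793), with the spread of all 12 libraries (0.155), against set 1 (0.133) and, being under 2-fold, without donor 1 (-0.93).

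**Figure D4:**
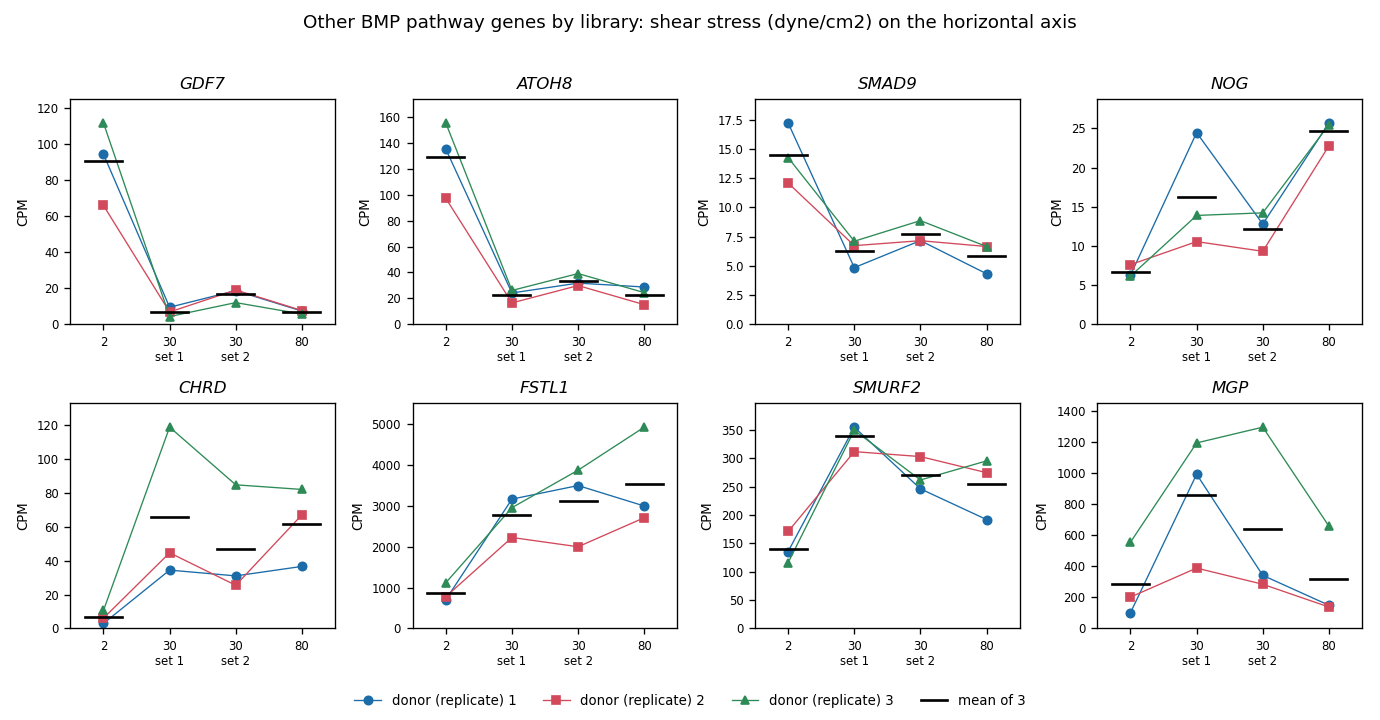
CPM (vertical axes) of the 8 other pathway genes that passed both thresholds in a comparison, in the 12 libraries by shear stress in dyne/cm2 (horizontal axis). Lines join the libraries of a donor and black bars are means of 3 donors. GDF7 and ATOH8 have 66.0 CPM or more at 2 dyne/cm2 and 39.1 CPM or less elsewhere, whereas CHRD, FSTL1 and SMURF2 have their lowest levels there.

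Of the intracellular genes, all 8 SMADs and SMAD ubiquitin ligases had enough reads. On the adjusted p alone 1 rose and 3 fell at 2 dyne/cm2, where 13.4% and 12.4% of all tested genes did. At 80 dyne/cm2 1 of the 8 changed, where 8.4% of all tested genes did. SMAD9 (SMAD8), a receptor SMAD that is also a target of the pathway, had 17.2, 12.1 and 14.3 CPM at 2 dyne/cm2 and 4.85, 6.73 and 7.10 CPM in set 1. It was up-regulated, with a log2 fold change of 1.24 (SE 0.22, adjusted p = 0.0202). The call was not made without donor 3 (adjusted p = 0.053) and, for a change under 2-fold, without donor 1 (0.95) or against set 2 (0.94). SMURF2, a ubiquitin ligase that marks SMADs and receptors for degradation, had 136, 171 and 116 CPM at 2 dyne/cm2 and 355, 312 and 350 CPM in set 1, a log2 fold change of -1.27 (SE 0.15, adjusted p = 0.0085), or -0.92 against set 2. With supra-high WSS the values of SMAD9 and SMURF2 were -0.38 (adjusted p = 0.218) and -0.08 (adjusted p = 0.754). SMURF1 and SMAD1 were named after their values were seen. SMURF1 fell at 2 dyne/cm2, with -0.54 (adjusted p = 0.0128). SMAD1 was the gene that changed at 80 dyne/cm2, higher in 3 of 3 donors, with means of 186 CPM and 128 CPM in set 2. Its log2 fold change was 0.55 (SE 0.12, adjusted p = 0.0321, or 0.644 without the donor term).

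Of 10 targets, 6 had enough reads, and on the adjusted p alone 4 rose and 1 fell at 2 dyne/cm2, where 13.4% and 12.4% of all tested genes did, with a median log2 fold change of 0.76. The 4 were ID3, ATOH8, HEY1 and ID2, the last with 0.61 (adjusted p = 0.0288, or 0.124 without the donor term). The CPM of ID2 at 2 dyne/cm2 and in set 2 overlapped. ATOH8, a basic helix-loop-helix factor induced by BMP signalling in ECs, was the target that passed both thresholds. It had 135, 97.3 and 155 CPM at 2 dyne/cm2 and 24.1, 16.5 and 26.1 CPM in set 1, and its log2 fold change of 2.56 (SE 0.08, adjusted p = 0.0019) varied from 1.96 to 2.59 over the alternatives. Under supra-high WSS it had 28.7, 15.1 and 24.4 CPM against 31.8, 29.9 and 39.1 CPM in set 2. That was lower in each donor, with a log2 fold change of -0.57 (SE 0.13, adjusted p = 0.0419), which had an adjusted p of 0.60 without the donor term, 0.146 without donor 2 and 0.229 without donor 3, and was 0.02 against set 1. HEY1 and HEY2, named after their values were seen, are shared with the Notch pathway. At 2 dyne/cm2 HEY1 rose by a log2 fold change of 0.98 (SE 0.26, adjusted p = 0.049) and HEY2 fell, with -0.88 (SE 0.09, adjusted p = 0.0068). At 80 dyne/cm2 HEY1 had -0.87 (SE 0.18, adjusted p = 0.0319) and HEY2 -0.02 (adjusted p = 0.913). The 3 calls of HEY1 and HEY2 were not made without the donor term (adjusted p = 0.499 and 0.0697 for low WSS, and 0.777 for HEY1 at supra-high WSS). The type I and type II receptors and the co-receptors held no gene past both thresholds, and the 11 with enough reads ranged from -0.83 to 0.52 for low WSS and from -0.63 to 0.20 for supra-high WSS.

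Likeness of pattern was described by Pearson's r of log2(CPM + 0.5) after removal of each donor's mean, over 12 libraries that share 4 conditions. Among the 9 genes the highest values were those of BMP4 with GDF6 (0.97), ID3 with BMP4 (0.94) and ID3 with GDF6 (0.93). BMPER and ACVRL1 ran against BMP4, with -0.78 and -0.79. Of 8625 genes with a symbol and at least 5 CPM on average, those most like BMP4 were CREB3L2, IL7, MAPK8IP1, WASF3 and SPATA6 (0.98 to 0.99). IL7, for example, had means of 79.5 CPM at 2 dyne/cm2, 5.34 and 9.82 CPM in sets 1 and 2 and 4.58 CPM at 80 dyne/cm2. Those most like SMAD6 were RILPL1, HES4, EAF1, ERG and CCND1, with lower values of 0.75 to 0.79. None is given for ID1, which had 0 to 3 counts.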

How the data were processed

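The authors sequenced single-end 100-nt reads on a HiSeq2000, mapped them to Sscrofa11.1 with STAR 2.4, kept uniquely mapped reads and assigned them to genes with featureCounts 1.4.6. They deposited raw counts per gene, not normalized, for 12 libraries. Here, genes reaching 1 CPM in 3 or more of the 6 libraries of a comparison (of 12 for the difference between responses) were tested by quasi-likelihood in edgeR 4.0.16 under R 4.3.3, after TMM normalization and with Benjamini-Hochberg adjustment. The donor was a term in each model, because the methods compare cultures of the same donor and the labels pair each replicate number with a donor. After removal of group means, 18 same-donor pairs from different groups had correlations of 0.63 to 0.87 over 11568 genes, and the 36 other pairs -0.55 to -0.18. With 3 libraries per group, removing the mean drives the other pairs negative when same-donor pairs are positive. Their sign is therefore no separate evidence for the pairing. The methods do not name a donor term in the authors' test, so fits without it were also made. The standard error is the log2 fold change divided by the square root of F. CPM use total reads on genes, without TMM, and differences within donors are of log2(CPM + 0.5). Alternatives were other normalization, test (DESeq2 1.42.0), filters, dispersion and control set, and each donor left out with all its libraries. The test was checked on simulated data that gave every gene the same dispersion. Differences in dispersion between genes were not covered by this check.

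Symbols were paired with 14572 of the 21153 gene IDs, and positions were matched by symbol to the RefSeq annotation of Sscrofa11.1. The deposited table gives no gene lengths, so levels are not compared between genes. The members and gene lists were chosen with earlier results of these data known. Genes named are the 10 members, the listed pathway genes past both thresholds in a comparison, and the 5 most similar in pattern to BMP4 and SMAD6. BMP2, BMP6, CRIM1, SMAD1, SMURF1, ID2, ID4, HEY1, HEY2, TMEM100 and single marker genes fall outside this rule and were chosen after their values were seen. Flow-responsive genes (KLF2, KLF4 and NOS3) summed to 263 to 495 CPM at 2 dyne/cm2 and 1082 to 2067 CPM in set 1, and to 1757 to 2326 CPM at 80 dyne/cm2 and 989 to 1536 CPM in set 2. Lymphatic endothelial markers summed to 0.204 to 3.07 CPM over all libraries.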

Additional observations from a re-analysis of the deposited data

Results flagged for a closer look

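For 5 genes the response to supra-high WSS differed from that to low WSS in the test over all 12 libraries (edgeR quasi-likelihood test with the donor term), which 37.1% of all tested genes passed. The differences, the response at 80 dyne/cm2 minus that at 2 dyne/cm2 on the log2 scale, were -7.23 for GDF6, -4.27 for BMP4, -1.08 for ID3, 0.72 for ACVRL1 and 0.52 for BMPER. Those of ACVRL1 and BMPER did not pass without the donor term (adjusted p = 0.253 and 0.623) or with any 1 donor left out (0.0586 to 0.0939 and 0.0545 to 0.167). With the 30 dyne/cm2 sets exchanged all 5 passed, at -4.21, -2.80, -0.87, 1.35 and 1.124 in the same order. GDF6, BMP4 and ID3 were higher at 2 dyne/cm2 and lower at 80 dyne/cm2 than their own controls in 3 of 3 donors. BMPER was lower than its controls in 3 of 3 donors in both comparisons. ACVRL1 was lower in 3 of 3 donors at 2 dyne/cm2 and higher in 2 of 3 at 80 dyne/cm2.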

How the results depend on the processing

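In sentences on counts, the order is all genes, the 9 members with enough reads and the pathway genes. For 2 vs. 30 dyne/cm2, 635 genes were called without the replicate block (the donor term), and on the adjusted p alone 2895 genes, 6 members and 20 pathway genes. For 80 vs. 30 dyne/cm2 the counts were 0, 0 and 0 without the replicate block, 125, 0 and 1 with the dispersion of all 12 libraries, 24, 0 and 0 against the other 30 dyne/cm2 set, and 940, 2 and 8 on the adjusted p alone. Leaving out 1 donor gave 144 (without donor 3) to 343 genes (without donor 1) and 1 to 2 members. There the log2 fold changes changed sign against the other set for ENG (-0.10), BMPR2 (0.037), ATOH8 (0.019) and GDF7 (0.064), and without donor 1 for BMPR2 (range -0.16 to 0.15), SMAD6 (-0.35 to 0.14) and SMURF2 (-0.23 to 0.10). Between the 30 dyne/cm2 sets the counts were 0 genes without the block, 66, 1 and 2 with DESeq2, 46, 1 and 2 without the filter, and 0 to 122, 0 to 1 and 0 to 2 with 1 donor left out. The ranges over donors left out crossed 0 for SMAD7 (-0.18 to 0.061) and FSTL1 (-0.0050 to 0.24). For the difference between responses, 1746 genes and 3 members were called without the block, and leaving out 1 donor gave 1995 (without donor 3) to 3375 genes, 3 members each time and 13 to 18 pathway genes, with ranges of -0.24 to 0.20 for ENG and -0.15 to 0.43 for SMAD7. With the 30 dyne/cm2 sets exchanged, an alternative added after seeing the data, 2568 genes were called, and SMAD6 (-0.11) and MGP (-0.77) changed sign. The causes of these shifts were not tested.

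Of the members' alternatives at low WSS, 94 kept their direction and side of the thresholds, 5 gained a call and none reversed. At supra-high WSS 90 did, 3 lost the call, 2 gained it and 4 reversed. These counts include the adjusted p alone, which drops the 2-fold rule and can only add calls. Members that were not called and stayed so also count as kept. With the donor term, leaving out 1 library also removes its partner, so whole donors were left out. Such fits rest on 2 donors. At supra-high WSS they called up to 343 genes, against 246 with all 3 donors, with adjusted p down to 2.1e-36 (GDF6). Their low adjusted p, as for CHRD, BMPER and FSTL1 without donor 1, are not stronger evidence than the fit of all donors. With 3 donors, small changes of genes such as ENG and SMAD6 were not resolved, and the 0 to 3 counts of ID1 allow no statement, for a reason that was not tested.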

Other observations

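TMEM100, a membrane protein gene induced through ACVRL1 in ECs, was named after its values were seen. It had 0.945, 8.21 and 0.0315 CPM in donors 1, 2 and 3 at 2 dyne/cm2, and at most 0.219 CPM in every other library, so it did not pass the filter and was not tested. Most of its reads came from donor 2. ID4 had its highest level, 12.5 CPM, in the culture of the same donor at 80 dyne/cm2, and at most 0.215 CPM in the other 2 cultures there.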
